A study of Medicago truncatula with 24 samples.

Results

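Peaks of acetylated histone H3 (H3ac) and of H3 trimethylated on lysine 27 (H3K27me3) were found by chromatin immunoprecipitation and sequencing (ChIP-seq). They were compared in embryos of *Medicago truncatula*, the barrel medic used as a model legume, matched by stage and temperature. Whether both marks came from one pool of seeds is not stated. The lists of both marks from the seed stages S1 and S2 at both growth temperatures were used, and each H3ac list was paired with the H3K27me3 list of its own stage and temperature. On chromosomes 1 to 8 these 8 lists held 23906 of the 38053 peaks in the 12 lists of the series, 6620 of H3ac and 17286 of H3K27me3. The H3ac lists held 4376 (S1 20°C), 928 (S2 20°C), 786 (S1 26°C) and 530 peaks (S2 26°C). The H3K27me3 lists held 4648, 1793, 5611 and 5234 in that order, which is kept throughout wherever 4 values follow each other. H3ac was called as narrow peaks and H3K27me3 as broad peaks, so the numbers of peaks were not compared between the marks and only positions were.

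Trimethylation of histone H3 on lysine 27 is laid down by Polycomb repressive complex 2 and marks genes that are kept silent, in plants mostly as a domain over the body of a gene. Acetylation of H3 neutralises lysines of the histone tail, loosens the hold of the histone on DNA and is typical of the start of transcribed genes. In seeds, Polycomb repression is known for the genes that must be shut or opened as the embryo passes from growth to maturation and dormancy, and the pair of marks is therefore often read as opposite states of chromatin.

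All embryos were of the genotype A17 and were dissected from pooled seeds of each condition, grown at 20°C by day and 18°C by night or, from flowering on, at 26°C and 24°C. S1 precedes the acquisition of desiccation tolerance and S2 follows it. At 20°C the age at S1 was 17 days from pollination and at S2 26 days, whereas at 26°C S1 was reached at 14 days and S2 at 17 days, so that a stage differed in age between temperatures. H3ac was precipitated with an antibody against acetylated H3 that does not single out a lysine, and each of the 12 IP libraries had 1 INPUT library of chromatin without antibody. The series record describes replicates for H3ac, but each condition was represented by 1 list, so no condition had a replicate. The 4 pairs of stage and temperature were the only units over which a difference could be tested, and they are not replicates of one condition. An exact sign-flip permutation test over 4 pairs cannot go below p = 0.125 (two-sided). The lists hold no measure of gene expression, so the labelled tissue could not be checked against marker genes.

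The lists carry no read totals. By the study's own account the H3ac libraries were sequenced less deeply than those of H3K27me3, and the INPUT library of H3ac at S1 20°C was much deeper than the other INPUT libraries of that mark. Of the H3ac peaks, 41.0%, 66.7%, 55.7% and 46.4% had a q-value of at most 0.05. Of the H3K27me3 peaks 98.5%, 90.4%, 98.5% and 98.5% did. The H3ac list of S1 20°C stood apart from the other 3 of its mark in gene distance and spacing, and so did the H3K27me3 list of S2 20°C from the other 3 of its own. Means over the pairs are therefore also given without the pair in question where that matters. Exact 95% binomial intervals (Clopper-Pearson) are given for shares of peaks and cover counting error only, and since peaks stand in runs they are too narrow even for that.

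Along the chromosomes both marks were most frequent in the middle and H3ac was the more confined of the pair. The stretch from 25% to 60% of chromosome length, chosen after the profiles were seen, is 35% of the length by construction. It held 43.1%, 77.4%, 73.2% and 83.2% of the H3ac peaks and 39.1%, 58.8%, 41.6% and 41.8% of the H3K27me3 peaks. H3ac thus exceeded H3K27me3 there in each pair, by the least at S1 20°C. The last 25% of chromosome length held 22.3%, 4.31%, 6.997% and 1.70% of the H3ac peaks and 23.4%, 12.9%, 19.7% and 19.9% of the H3K27me3 peaks.

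**Figure D1:**
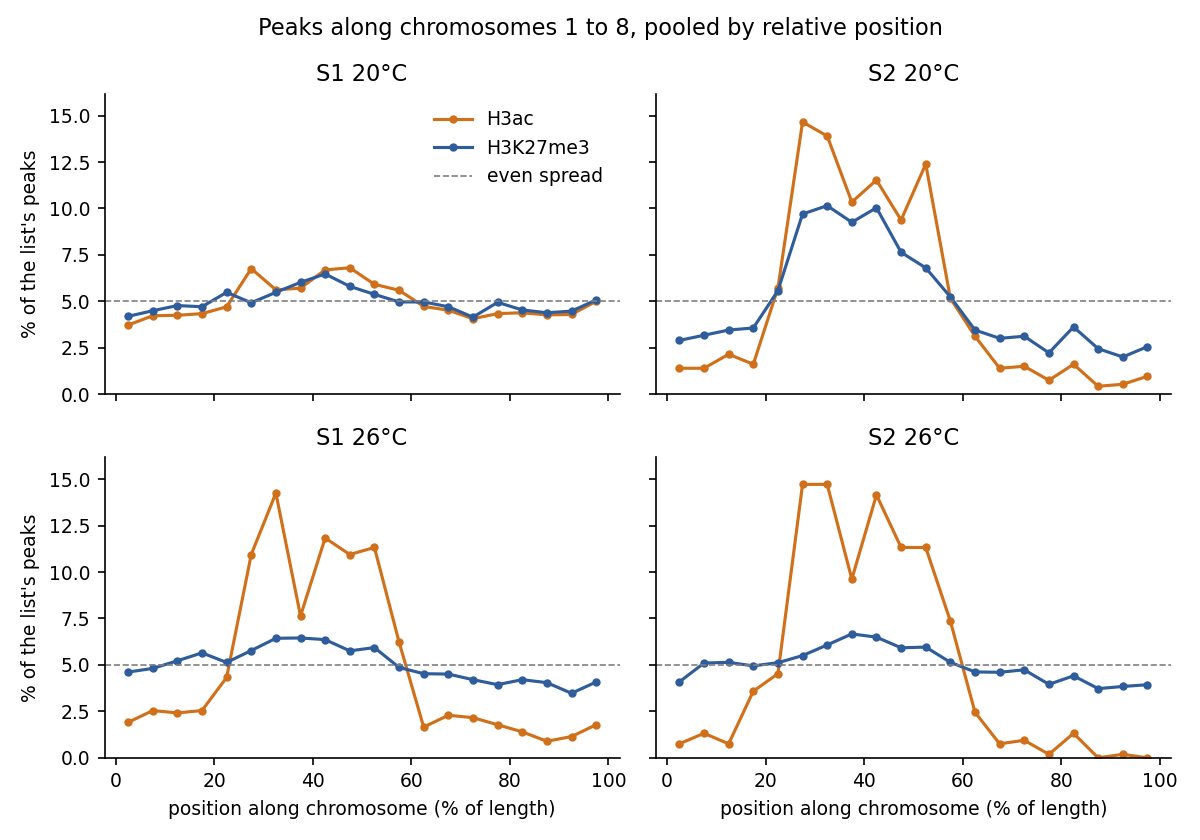
Share of the peaks of each list (y axis, %) in 20 steps of relative position along chromosomes 1 to 8 (x axis, % of length), with 1 panel per stage and temperature, orange for H3ac, blue for H3K27me3 and a dashed line at the 5% of an even spread. H3ac rose to a plateau in the middle at S2 at both temperatures and at S1 26°C, while at S1 20°C both lines stayed close to the dashed line.

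H3ac was also the scarcer of the pair at the chromosome ends, taken as the 3 Mb next to either end. Of a fixed grid of 42594 windows of 10 kb, 11.3% had their midpoint in these ends. H3ac had 9.69% of its peaks there at S1 20°C (interval 8.83% to 10.6%), 2.59% at S2 20°C (1.66% to 3.82%), 3.82% at S1 26°C (2.59% to 5.40%) and 0.755% at S2 26°C (0.206% to 1.92%). H3K27me3 had 10.6% (9.69% to 11.5%), 6.13% (5.07% to 7.35%), 9.73% (8.97% to 10.5%) and 8.83% (8.07% to 9.63%). H3ac was the lower in 4 of 4 pairs, by the least at S1 20°C. H3ac minus H3K27me3 was −0.87, −3.55, −5.91 and −8.07 percentage points, with a mean of −4.60 ± 3.10 (SD, n = 4 pairs, two-sided exact permutation test by sign flips, p = 0.125). Without S1 20°C the mean was −5.85.

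H3K27me3 peaks lay closer to protein-coding genes than H3ac peaks did. Of the 10-kb windows, 60.6% had a midpoint within 3 kb of one of the 31728 annotated protein-coding genes, 3 kb being the promoter length used in the study. Of the H3ac peaks 55.3% were within 3 kb of such a gene at S1 20°C (53.8% to 56.8%), 11.1% at S2 20°C (9.15% to 13.3%), 16.7% at S1 26°C (14.1% to 19.5%) and 15.1% at S2 26°C (12.2% to 18.4%). Of the H3K27me3 peaks it was 59.2% (57.8% to 60.6%), 27.1% (25.1% to 29.2%), 57.3% (56.0% to 58.6%) and 55.7% (54.3% to 57.0%). The share of H3K27me3 was thus close to that of the windows except at S2 20°C, and the share of H3ac was far below it except at S1 20°C. The difference between the marks was −25.3 ± 18.4 percentage points (SD, n = 4 pairs, two-sided exact permutation test by sign flips, p = 0.125) and −32.4 without S1 20°C. In that pair it was −3.93, and counting only peaks that overlap the gene it changed sign to 2.72. The median distance to the nearest protein-coding gene was 1.91, 20.2, 16.5 and 17.2 kb for H3ac and 1.64, 9.67, 1.82 and 2.02 kb for H3K27me3.

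**Figure D2:**
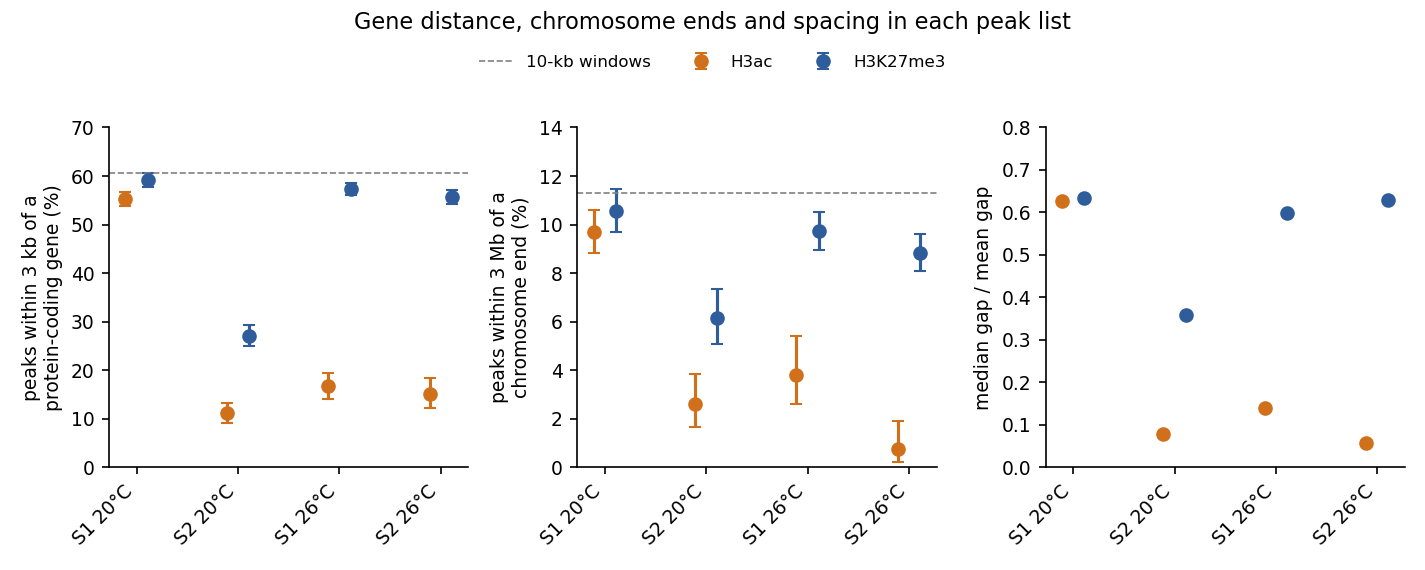
Share of peaks within 3 kb of a protein-coding gene (left, %), share within 3 Mb of a chromosome end (middle, %) and median divided by mean gap between neighbouring peaks (right, no unit) for each list, orange for H3ac and blue for H3K27me3, with exact 95% binomial intervals as bars and the share of 10-kb windows as a dashed line. The marks were close at S1 20°C and apart in the other pairs, with H3ac below H3K27me3 in each panel.

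The same was seen when the chromosomes were divided into 428 bins of 1 Mb and the bins were put into 5 classes of like size by their number of protein-coding genes. The gene-poorest class, 85 bins with 6 to 52 genes, held 19.8% of the windows. It held 29.8%, 80.4%, 71.6% and 84.5% of the H3ac peaks and 24.5%, 52.0%, 24.2% and 26.3% of the H3K27me3 peaks. The gene-richest class, 86 bins with 96 to 115 genes, held 17.3%, 1.62%, 3.94% and 0.189% of the H3ac peaks and 17.0%, 7.42%, 14.7% and 15.0% of the H3K27me3 peaks. At S2 26°C the H3ac share of the richest class was far below that of H3K27me3, whereas at S1 20°C the shares were alike.

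**Figure D3:**
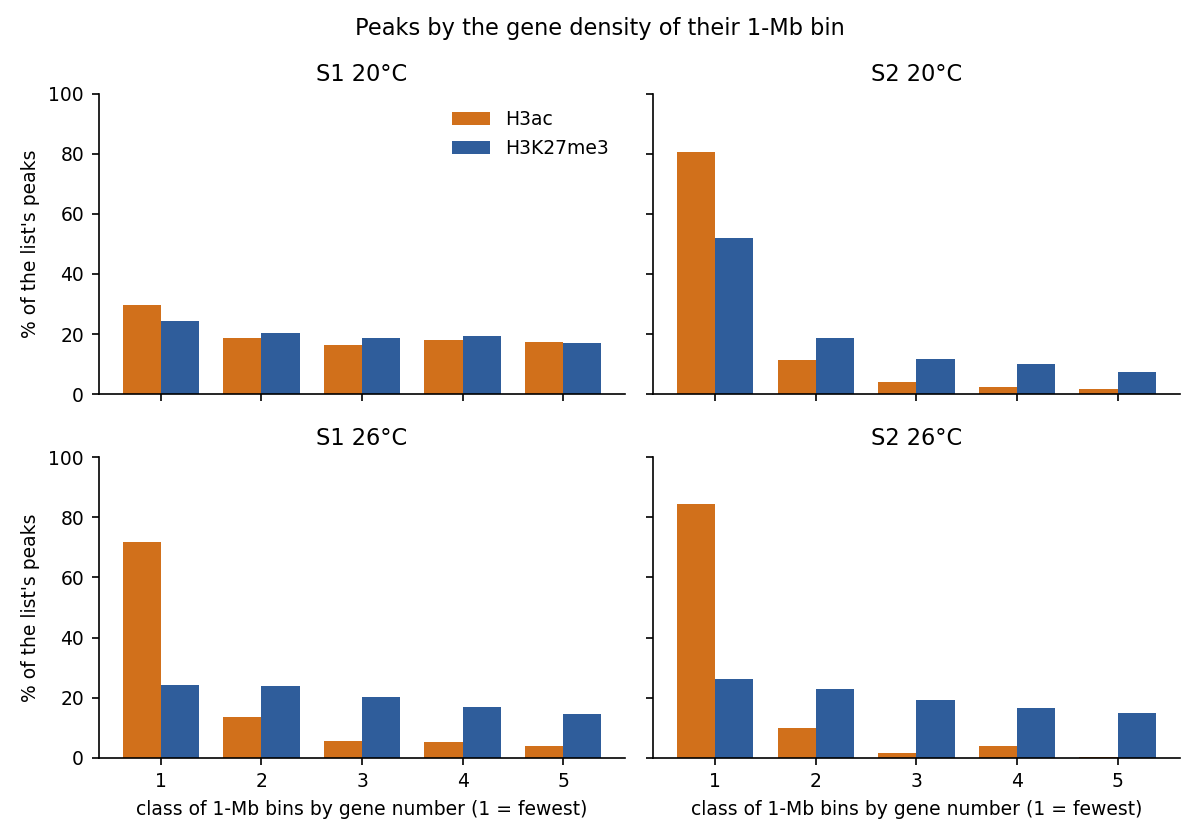
Share of the peaks of each list (y axis, %) in 5 classes of 1-Mb bins ordered by their number of protein-coding genes (x axis, class 1 the fewest), with 1 panel per stage and temperature, orange for H3ac and blue for H3K27me3. In the panels other than S1 20°C 71.6% to 84.5% of the H3ac peaks stood in class 1, against 52.0% of H3K27me3 at S2 20°C and 24.2% and 26.3% at 26°C.

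Where the peaks lay within a bin also differed. Inside the gene-poorest class, 31.6% of the windows were within 3 kb of a protein-coding gene, against 19.3%, 7.64%, 7.99% and 9.82% of the H3ac peaks and 29.3%, 15.6%, 30.1% and 26.5% of the H3K27me3 peaks. H3ac peaks of gene-poor bins were thus farther from genes than their surroundings in all 4 lists. In the other 4 classes, where 67.7% of the windows were near a gene, it was 70.5%, 25.3%, 38.6% and 43.9% of the H3ac peaks and 68.9%, 39.6%, 66.0% and 66.1% of the H3K27me3 peaks. Within those classes H3ac at S1 20°C was above H3K27me3 by 1.65 percentage points and in the other pairs it was below. This split by gene density was chosen after seeing the data. The share near a gene was lower for H3ac than for H3K27me3 on 7 of 8 chromosomes at S1 20°C and on 8 of 8 in each of the other pairs.

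The chromosomes also differed in how the marks were shared out. Chromosome 7 is 13.2% of the length and held 13.6%, 21.2%, 17.2% and 19.6% of the H3ac peaks and 14.3%, 17.1%, 14.7% and 14.1% of the H3K27me3 peaks. Chromosome 5, with 10.5% of the length, held 9.42%, 5.50%, 5.98% and 3.40% of the H3ac peaks and 10.2%, 8.70%, 10.1% and 9.80% of the H3K27me3 peaks. Chromosome 6, the shortest at 42.9 Mb, is 10.1% of the length with 7.73% of the protein-coding genes, and held 10.1%, 15.4%, 16.9% and 14.3% of the H3ac peaks against 11.0%, 13.1%, 11.7% and 11.1% of the H3K27me3 peaks.

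Spacing separated the marks in 3 of the pairs. The median gap from the end of a peak to the start of the next was 60.6, 30.1, 70.1 and 21.4 kb for H3ac and 56.9, 82.7, 44.5 and 50.2 kb for H3K27me3. Since a gap depends on how many peaks a list holds, the median was divided by the mean gap of the same list, a ratio that falls when peaks stand in clusters with long empty stretches between them. The ratio was 0.628, 0.0776, 0.138 and 0.0568 for H3ac and 0.633, 0.357, 0.598 and 0.630 for H3K27me3. On the log2 scale H3ac over H3K27me3 was −0.01, −2.20, −2.11 and −3.47, with a mean of −1.95 ± 1.43 (SD, n = 4 pairs, two-sided exact permutation test by sign flips, p = 0.125) and −2.60 without S1 20°C. With peaks within 1 kb of each other merged, the mean was −1.27 and S1 20°C stood at 0.01 on the other side of 0, and with peaks within 5 kb merged, an alternative chosen after seeing the data, it was −0.97. Merging thus made the difference smaller without removing it.

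Close neighbours were more common for H3ac except at S1 20°C, and its longest gap was longer in all 4 pairs, though a longest gap also depends on the number of peaks. Gaps of at most 10 kb were 16.4%, 42.4%, 36.4% and 45.6% of the gaps of H3ac and 19.1%, 25.8%, 19.5% and 17.3% of those of H3K27me3. Runs of at least 3 peaks with such gaps held 10.2%, 40.1%, 32.6% and 47.4% of the H3ac peaks and 12.4%, 19.1%, 12.4% and 9.55% of the H3K27me3 peaks. Merging peaks within 1 kb left 4206, 765, 672 and 427 H3ac peaks and 4611, 1793, 5611 and 5234 H3K27me3 peaks. Gaps of at most 1 kb were thus absent from the broad H3K27me3 lists except at S1 20°C, but present in the narrow H3ac lists. The shares of close gaps and of runs were not recomputed without gaps of that size. The longest gap between neighbouring peaks, leaving out the stretches before the first and after the last peak of a chromosome, was 1.22, 21.6, 20.0 and 23.1 Mb for H3ac and 0.774, 3.85, 0.939 and 0.815 Mb for H3K27me3. H3ac peaks occurred in 428, 176, 209 and 102 of the 428 bins and H3K27me3 peaks in 428, 369, 428 and 428, counts which also depend on the number of peaks.

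The 5 fullest bins of a list held 3.47%, 14.9%, 13.2% and 17.7% of its peaks for H3ac and 2.60%, 7.42%, 2.85% and 2.73% for H3K27me3. The mean difference was 8.43 ± 5.92 percentage points (SD, n = 4 pairs, two-sided exact permutation test by sign flips, p = 0.125), and H3ac was the higher in 4 of 4 pairs. By covered length in place of the number of peaks, the difference was 13.7, 4.85, 22.7 and 24.6 with a mean of 16.5, so that S1 20°C moved from 0.87 to 13.7. The fullest bins of the marks were partly the same. At S2 20°C the fullest bin of both was on chromosome 7 from 16 to 17 Mb, with 32 H3ac and 43 H3K27me3 peaks and 18 protein-coding genes. It also held 30, 9 and 9 H3ac peaks and 25, 33 and 27 H3K27me3 peaks in S1 20°C and S1 and S2 26°C. The bin on chromosome 6 from 20 to 21 Mb, which carries 505 rRNA genes, was the fullest of H3K27me3 at S1 20°C with 26 peaks and of H3ac at S1 26°C with 25 peaks. The fullest H3ac bins of the other lists were on chromosome 7 from 20 to 21 Mb with 34 peaks at S1 20°C and on chromosome 4 from 20 to 21 Mb with 21 peaks at S2 26°C. The fullest bin of H3K27me3 at 26°C was of another kind, on chromosome 6 from 15 to 16 Mb with 68 protein-coding genes. It held 35 H3K27me3 peaks at S1 and 32 at S2 26°C, and 2 and 0 H3ac peaks there. Those H3ac lists had only 786 and 530 peaks over the 428 bins, so low counts per bin were common in them. At 20°C the bin held 22 H3K27me3 and 7 H3ac peaks at S1, and 6 and 1 at S2.

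H3ac peaks lay closer to the H3K27me3 peaks of their own condition than the windows of the genome did, in all 4 pairs. The median distance from an H3ac peak to the nearest H3K27me3 peak was 29.3 kb at S1 20°C, 3.69 kb at S2 20°C, 12.0 kb at S1 26°C and 10.9 kb at S2 26°C. From the midpoints of the windows it was 34.0, 129, 28.4 and 29.5 kb. Within 10 kb of an H3K27me3 peak were 25.9% of the H3ac peaks at S1 20°C (24.6% to 27.2%), 59.7% at S2 20°C (56.5% to 62.9%), 46.3% at S1 26°C (42.8% to 49.9%) and 47.9% at S2 26°C (43.6% to 52.3%), against 19.8%, 7.48%, 23.5% and 22.6% of the windows. The excess over the windows was 6.11, 52.2, 22.8 and 25.4 percentage points, with a mean of 26.6 ± 19.1 (SD, n = 4 pairs, two-sided exact permutation test by sign flips, p = 0.125). It was 18.1 without S2 20°C and 33.5 without S1 20°C. The excess was above 0 on 8 of 8 chromosomes in each pair, from 1.85 on chromosome 2 at S1 20°C to 57.4 on chromosome 8 at S2 26°C.

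The excess in percentage points was smaller when the H3K27me3 list of each pair was cut to as many peaks as its H3ac list. The strongest by p-value were kept, which changes number and strength together. The excess was then 5.43, 38.0, 4.97 and 5.32 percentage points with a mean of 13.4. Near shares were then 8.91% at S1 26°C and 8.11% at S2 26°C, against 3.94% and 2.80% of the windows. With fewer H3K27me3 peaks the window shares fell too, from 23.5% and 22.6%. A smaller difference in points is thus not by itself a weaker proximity. A window was measured from its midpoint and a peak from its edge, which favours peaks, and from midpoint to midpoint of the peaks the excess was 5.56, 47.9, 18.9 and 21.5. As both marks favoured gene-poor bins, the comparison was repeated within strata, a choice made after seeing the data. Within the gene-poorest class 33.4%, 62.1%, 46.7% and 46.0% of the H3ac peaks were within 10 kb, against 24.1%, 18.8%, 28.5% and 29.3% of its windows. In the other 4 classes it was 22.7%, 50.0%, 45.3% and 58.5%, from 3072, 182, 223 and 82 H3ac peaks, against 18.7%, 4.68%, 22.3% and 20.9% of the windows. The H3ac shares exceeded the window shares in both strata of all 4 pairs.

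**Figure D4:**
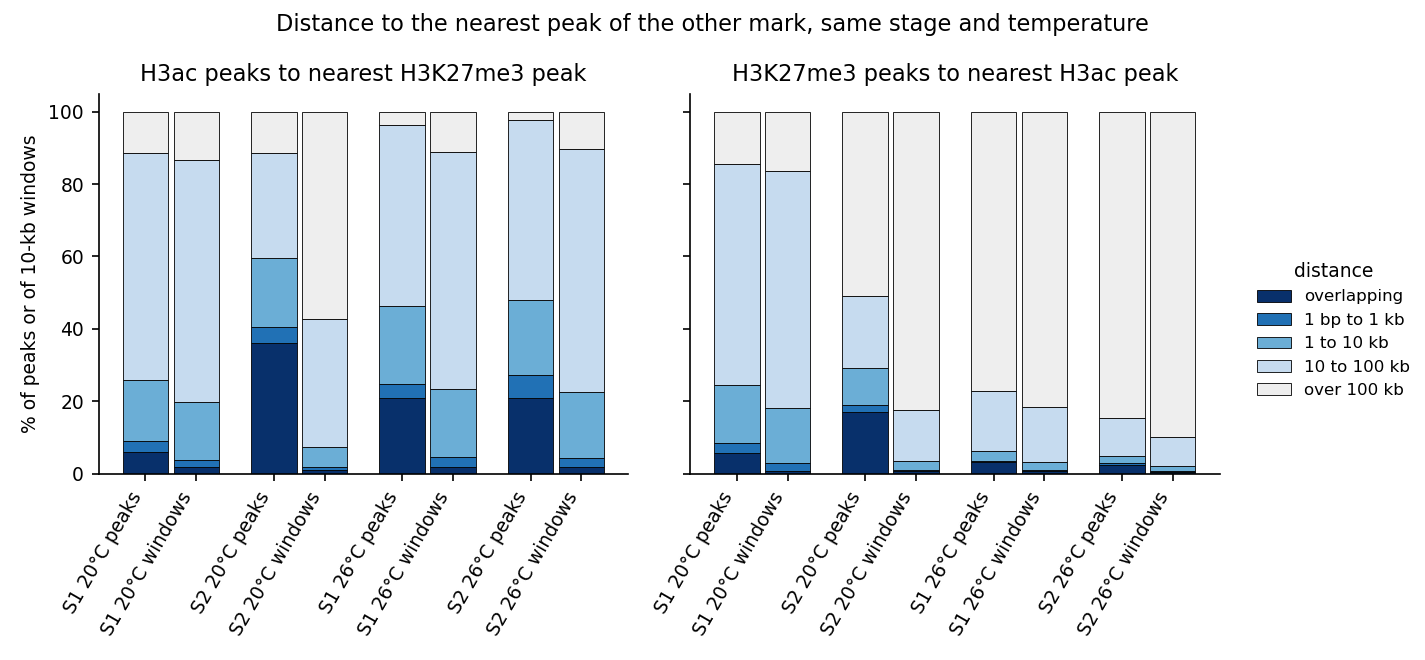
Share of peaks and of 10-kb windows (y axis, %) by distance to the nearest peak of the other mark in the same stage and temperature, from H3ac peaks (left) and from H3K27me3 peaks (right), with the darkest segment for overlap and the palest for distances over 100 kb. Overlap took 5.87% to 36.2% of the H3ac peaks and at most 1.93% of the windows, and at 26°C 77.1% and 84.6% of the H3K27me3 peaks were over 100 kb from any H3ac peak, against 81.7% and 90.0% of the windows.

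H3K27me3 peaks were likewise closer to H3ac peaks than the windows were. Within 10 kb of an H3ac peak were 24.5% of the H3K27me3 peaks at S1 20°C (23.3% to 25.7%), 29.1% at S2 20°C (26.96% to 31.2%), 6.18% at S1 26°C (5.57% to 6.85%) and 4.89% at S2 26°C (4.32% to 5.51%). The windows stood at 18.1%, 3.47%, 3.08% and 2.00%. The mean excess was 9.49 ± 10.9 percentage points (SD, n = 4 pairs, two-sided exact permutation test by sign flips, p = 0.125), above 0 in 4 of 4 pairs and on 8 of 8 chromosomes in each. It rested largely on S2 20°C, since without that pair the mean was 4.12. Within the gene-poorest class the mean excess was 13.9, and in the other 4 classes it was 4.46, where S1 and S2 at 26°C stood at 1.03 and 0.91. The median distance from an H3K27me3 peak to the nearest H3ac peak was 31.2, 108, 396 and 1949 kb, against 36.9, 758, 502 and 3247 kb from the windows. Over 100 kb from H3ac were 14.5%, 50.9%, 77.1% and 84.6% of the H3K27me3 peaks and 16.3%, 82.5%, 81.7% and 90.0% of the windows.

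The 6 tests of positions, spacing and proximity all stood at p = 0.125, the smallest that 4 pairs allow, and the Benjamini-Hochberg adjusted value over the 6 is the same 0.125 (exact sign-flip permutation tests). None passed 0.05, which this design cannot reach.

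Peaks that overlapped the other mark were longer than the rest. H3ac peaks that overlapped H3K27me3 numbered 257, 336, 164 and 111, and their median length was 534, 3182, 4388 and 3971 bp. Those 10 to 100 kb away had medians of 382, 847, 776 and 1581 bp. The overlapping H3ac peaks had a median −log10 p of 4.45, 6.24, 5.09 and 5.51, and those 10 to 100 kb away 3.44, 3.89, 4.04 and 3.26. Median fold enrichment, the ratio of IP to INPUT, differed little, at 3.14, 3.52, 3.07 and 3.15 for overlapping peaks against 3.14, 3.17, 3.27 and 2.85. H3K27me3 peaks that overlapped H3ac were likewise long, with medians of 1429, 2246, 2159 and 2267 bp against 409, 518, 498 and 482 bp for those 10 to 100 kb away. Within 3 kb of a protein-coding gene were 39.4%, 11.8%, 14.9% and 13.0% of these overlapping H3K27me3 peaks against 60.8%, 20.0%, 43.7% and 29.9% of those 10 to 100 kb away. For H3ac it was 39.3%, 11.0%, 17.1% and 15.3% of the overlapping peaks against 57.6%, 6.74%, 16.8% and 12.2%. By that comparison overlapping H3ac peaks were less often near a gene at S1 20°C only. Against H3ac peaks 1 bp to 10 kb away, at 49.4%, 10.6%, 13.0% and 18.2%, overlapping peaks were lower at S1 20°C and S2 26°C. H3ac peaks over 100 kb away, 505, 107, 30 and 13 in number, stood higher in each pair, at 61.2%, 23.4%, 36.7% and 38.5%. A longer peak overlaps more easily, and the part of length in the overlap was not tested beyond the midpoint distances above.

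The excess was not highest with the H3K27me3 list of the same condition, except for H3ac of S2 20°C. For the 16 combinations of an H3ac list with an H3K27me3 list, the excess in its own condition minus the mean of the other 3 was −2.81 for H3ac of S1 20°C, 28.8 for S2 20°C, −10.9 for S1 26°C and −2.83 for S2 26°C. The mean of these was 3.04 percentage points. All 4 H3ac lists had their highest excess with the H3K27me3 list of S2 20°C, at 11.9, 52.2, 50.2 and 52.7. With the same number of strongest peaks in all H3K27me3 lists the mean was 3.06, with S2 20°C at 45.2 and the other 3 below 0. These combinations reuse the same lists and were given no test.

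**Figure D5:**
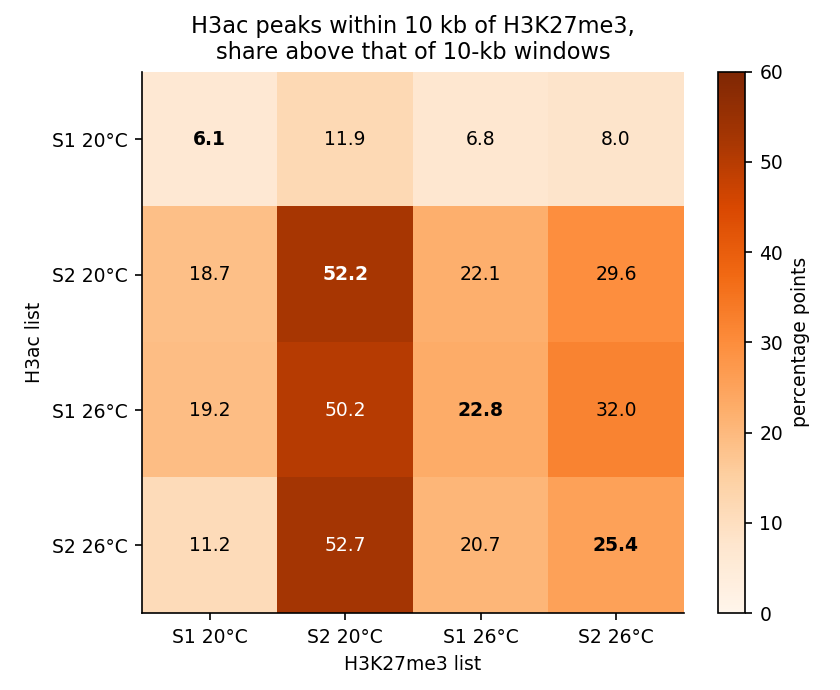
Share of the peaks of an H3ac list (rows) within 10 kb of the peaks of an H3K27me3 list (columns), minus the share of 10-kb windows, in percentage points (colour and number), with the own stage and temperature in bold on the diagonal. The column of H3K27me3 at S2 20°C holds the highest value of each row, from 11.9 to 52.7.

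Over the 428 bins, the number of H3ac peaks and the number of H3K27me3 peaks of the same condition had Spearman's rho of 0.22, 0.61, 0.28 and 0.45 and Pearson's r of 0.29, 0.78, 0.32 and 0.44. Between marks of different conditions rho was 0.20 to 0.61 over 12 combinations, with a median of 0.36. Within H3ac it was 0.40 to 0.71 and within H3K27me3 0.25 to 0.53, over 6 combinations each. With the number of protein-coding genes of the bin, rho was −0.67 to −0.34 for H3ac and −0.65 to −0.29 for H3K27me3. Bins of one chromosome are neighbours and share gene density, so these values are a description across bins, with no test.

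The length under both marks was 0.717 Mb at S1 20°C, 1.61 Mb at S2 20°C, 0.747 Mb at S1 26°C and 0.847 Mb at S2 26°C. This was 20.9%, 51.5%, 30.2% and 36.0% of the length under H3ac and 9.42%, 37.4%, 9.25% and 10.6% of the length under H3K27me3. Merged over the 4 pairs, the shared stretches made 660 regions of 1.93 Mb in all. Of these, 532 were found in 1 pair only, 68 in 2, 28 in 3 and 32 in all 4. A pair counted where any of its shared stretches fell in the merged region. Not every base of a recurrent region was therefore under both marks in all 4 pairs. The 32 recurrent regions, as merged, made up 0.873 Mb, with a median length of 19.4 kb and a range of 2.93 to 106 kb. They occurred on all 8 chromosomes, with their middles at 19.6% to 58.1% of chromosome length, and 30 of the 32 stood in bins of the gene-poorest class. No annotated gene lay in 22 of them, 2 held a protein-coding gene and 5 held rRNA genes, 434 in number. Regions between 20 and 21 Mb of chromosome 6 held 277, 99, 28 and 27 of these rRNA genes. In the gene-poorest class only 31.6% of the windows were within 3 kb of a protein-coding gene. The share of other stretches of like length without a gene was not computed, so these counts are a description.

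Of the recurrent regions, the 6 with the highest lowest fold enrichment over the 8 lists were named by rule, with positions on the MtrunA17r5.0 assembly. The first, on chromosome 6 from 20570150 to 20599995, overlapped 99 rRNA genes and 1 pseudogene and had a fold enrichment of 3.61 to 6.18 over both marks. Values of broad peaks are averages over the peak, so the fold enrichment of the marks is not compared. The region on chromosome 3 from 25289180 to 25304496 overlapped the pseudogene LOC25490716 and ranged from 3.45 to 11.0. Its H3ac fold enrichment was 6.83, 4.25, 11.0 and 4.03 and that of H3K27me3 3.54, 4.31, 3.45 and 4.46. The region on chromosome 7 from 18471688 to 18508654 had fold enrichments of H3ac at 3.52, 3.83, 3.15 and 3.85 and H3K27me3 at 8.21, 15.7, 5.24 and 10.9. The regions on chromosome 4 (19943924 to 19953895), chromosome 8 (22579134 to 22594496) and chromosome 5 (22526105 to 22534113) ranged from 3.05 to 9.90, 2.96 to 8.50 and 2.89 to 6.58. No annotated gene lay in the last 4. Reads with more than 1 place in the genome were not kept by the authors, so peaks in repeated arrays such as the rRNA genes rest on the reads that could be placed, and how this shaped them was not tested.

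Few protein-coding genes lay under both marks. H3ac peaks overlapped 1647, 54, 66 and 40 protein-coding genes, which is 5.19%, 0.170%, 0.208% and 0.126% of the 31728 annotated. H3K27me3 peaks overlapped 1723, 241, 2039 and 1861, which is 5.43%, 0.760%, 6.43% and 5.87%. Both overlapped 152, 23, 23 and 26 genes, which is 0.479%, 0.0725%, 0.0725% and 0.0819%. Of the genes under H3ac 9.23%, 42.6%, 34.8% and 65.0% were thus also under H3K27me3, above the share of all protein-coding genes in each pair. Of the genes under H3K27me3 8.82%, 9.54%, 1.13% and 1.40% were also under H3ac. A single long peak can cover neighbouring genes, so genes are not independent counts, and no test was made. Of the 1407 rRNA genes, which are mostly short copies in arrays, 129, 469, 226 and 213 lay under both marks. That is 9.17%, 33.3%, 16.1% and 15.1% of them, against 0.787%, 1.38%, 0.713% and 0.715% of all 39280 annotated genes. Under H3ac were 442, 478, 371 and 516 rRNA genes and under H3K27me3 155, 542, 269 and 255. Here too a long peak can cover many neighbouring copies, so these counts are a description.

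By rule the 2 protein-coding genes with the highest lower fold enrichment of the marks were named for each pair. At S1 20°C these were LOC11428264 on chromosome 3 (24000392 to 24006202), with 6.01 for H3ac and 16.1 for H3K27me3, and LOC11439130 on chromosome 4 (52016488 to 52022494), with 6.92 and 5.47. Both genes were free of H3ac peaks in the other 3 lists, and both had an H3K27me3 peak again at S2 26°C, of 8.69 and 6.80. At S2 20°C LOC120576979 on chromosome 7 (15083834 to 15086136) had 6.70 for H3ac and 4.10 for H3K27me3. LOC25480017 on chromosome 5 (23911733 to 23912206) was named at S2 20°C, with 6.85 and 3.86, and at S1 26°C, with 9.03 and 5.45. It carried both marks also at S1 20°C, with 8.48 and 4.50, and H3K27me3 alone at S2 26°C, with 7.79. LOC112418360 on chromosome 6 (26923068 to 26942673) had 6.10 and 5.00 at S1 26°C, and both marks in S2 at both temperatures. At S2 26°C LOC120580077 (12707243 to 12709478) and LOC11441954 (12728713 to 12730186) on chromosome 4 shared one pair of peaks with 19.3 for H3ac and 13.2 for H3K27me3. Both stood in a recurrent region of 23.3 kb (12708439 to 12731718). It also overlapped 3 tRNA genes (of the types TRNAW-CCA and TRNAP-UGG) and 4 pseudogenes. The annotation used here gives the protein-coding genes named here no description, so no function is stated.

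Genes with 1 mark far from the other were also named by rule, at a q-value of no more than 0.05. The H3ac peaks in a protein-coding gene that were farthest from H3K27me3 were in LOC25492861 on chromosome 4 (36931982 to 36933427), 291 kb away at S1 20°C, LOC120579442 on chromosome 1 (8545627 to 8546602), 518 kb away at S2 20°C, LOC25493281 on chromosome 4 (45472079 to 45473881), 142 kb away at S1 26°C, and LOC112422660 on chromosome 4 (20267632 to 20268867), 104 kb away at S2 26°C. The runners-up were LOC25488056, LOC120575874, LOC120577004 and LOC120575977, at 279, 315, 129 and 94.2 kb. Being far from H3K27me3 in one condition did not mean so in the others. LOC25493281 had an H3K27me3 peak of 4.67 at S1 20°C beside H3ac of 4.55, and LOC120575977 had one of 3.10 at S1 26°C. The H3K27me3 peaks in a protein-coding gene that were farthest from H3ac were in LOC11423541 on chromosome 5 (607 kb at S1 20°C), LOC25484837 on chromosome 1 (10728 kb at S2 20°C), LOC25484730 on chromosome 1 (9987 kb at S1 26°C) and LOC25494360 on chromosome 4 (38315 kb at S2 26°C). The second of each were LOC11433926, LOC11420287, LOC25484740 and LOC25494324. Of these, LOC25484740 had an H3ac peak of 5.03 at S1 20°C. Such distances also depend on how few H3ac peaks a list holds. The median from the windows to the nearest H3ac peak was 36.9, 758, 502 and 3247 kb.

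A set of 77 protein-coding genes with a published name in the annotation gives some familiar ones, many of them from work on root nodules. It was taken after the values were seen, and is a description. Within 3 kb of an H3ac peak were 8, 0, 0 and 0 of the 77, and within 3 kb of an H3K27me3 peak 4, 0, 6 and 9. Of all protein-coding genes, 9.27%, 0.299%, 0.432% and 0.221% were within 3 kb of H3ac and 10.4%, 1.66%, 11.8% and 11.2% within 3 kb of H3K27me3, and the named genes at S1 20°C stood at 10.4% for H3ac and 5.19% for H3K27me3. None of them had both marks within 3 kb in one condition. Of all protein-coding genes, 0.479%, 0.0725%, 0.0725% and 0.0819% were overlapped by both marks. Overlap is a stricter measure than a distance within 3 kb, and the share of all genes with both marks within 3 kb is not given here. Without that share, a set of 77 genes cannot show whether the marks avoid each other there. The named genes near a peak include early nodulin genes, which are switched on in the root at the start of nodulation. ENOD20 (LOC11444178, chromosome 4, 62679049 to 62681830) was overlapped by H3K27me3 at 26°C with 9.30 at S1 and 7.57 at S2, ENOD16 beside it with 2.97 at S2 26°C, ENOD12 had an H3K27me3 peak 1536 bp away with 3.56 at S1 20°C and 2590 bp away with 5.39 at S1 26°C, and ENOD11 shared the latter peak. NOOT1 and NOOT2 are cofactors of transcription that hold the identity of nodules and act in lateral organs. NOOT1 (LOC11417633, chromosome 7, 42203811 to 42207270) had H3K27me3 of 4.91 at S1 20°C and 6.82 at S2 26°C. NOOT2 (LOC25483282, chromosome 1, 20472919 to 20476546) had H3K27me3 of 8.28 at S1 and 9.02 at S2 26°C, and at S1 20°C an H3ac peak of 3.14, 38.4 kb from H3K27me3. SUNN, the receptor kinase that limits the number of nodules, had H3K27me3 of 3.58 at S1 20°C. With H3ac at S1 20°C were NSP2, a transcription factor of nodulation signalling, with 2.73, DELLA1, a repressor of the gibberellin response, with 2.52, CCS52B, an activator of the anaphase-promoting complex, with 2.52, and ATG4, a protease of autophagy, with 3.77. Of these H3ac peaks only that of ATG4 had a q-value under 0.05.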

How the data were processed

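Trim_galore, STAR (MtrunA17r5.0 assembly, reads with 1 place in the genome), Picard, Samtools and macs2 (paired-end, p-value threshold of 0.01) were used by the authors, who called each IP library against its own INPUT library without pooling. Versions are not given in the sources used here. The authors deposited, for each peak, its position, a fold enrichment, which is the ratio of IP over INPUT signal, and p- and q-values on the −log10 scale. No column of another series was used, and the H3K27me3 lists of S3 and S4 were not used here, since the pairs need both marks.

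Distances, gaps and counts were computed in Python 3.11.15 with NumPy 2.4.6, pandas 2.3.3 and SciPy 1.17.1, and figures with matplotlib 3.10.9, using all peaks on chromosomes 1 to 8 and the RefSeq genes of the same assembly (39280, of which 31728 are protein-coding). A chromosome was taken to end with its last peak or gene. Interval code was tested on simulated peaks, and 8 of 8 quantities were equal with bedtools. Windows form a fixed grid of 10 kb. Pairs were compared by exact sign-flip permutation tests. The numbers of reads behind a peak are unknown, so the precision of single peaks could not be given. Samples, measures and lists were chosen with earlier results of these data known. Genes and regions were named by rule: for each pair the 2 protein-coding genes with the highest lower fold enrichment under both marks, the 2 under either mark farthest from the other at a q-value of at most 0.05, up to 6 regions shared in all pairs and the fullest bin of each list. Planned gene lists by description could not be made, since the gene table has no descriptions. Alternatives were stricter p and q, equal numbers of peaks, merged peaks, no rRNA surroundings, other distances and bins, and each pair left out.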

Additional observations from a re-analysis of the deposited data

Results flagged for a closer look

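For 10 measures in each mark, the 4 lists were searched for one that lay far from the rest, which gave 5 cases in 20 searches where chance gives about 1 in 20, and several of the measures depend on each other. H3ac of S1 20°C was the high one of its mark in the share of peaks within 3 kb of a protein-coding gene (55.3%) and in the ratio of median to mean gap (0.628). The H3K27me3 list of S2 20°C was the low one of its mark in the same measures (27.1% and 0.357) and the high one in the share of peaks in its 5 fullest bins (7.42%). Each list is 1 library, and whether the library or the embryos made these values cannot be told apart.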

How the results depend on the processing

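Over the 6 tested results, all 50 alternatives other than leaving out a pair kept the direction of the mean, and in 47 of them all 4 pairs had that direction. The exceptions were S1 20°C for genes overlapped by the peak, for genes outside the gene-poorest class and for spacing with peaks within 1 kb merged. Means moved by over 1.5 times for distal peaks within 5 Mb (−7.68) and 1 Mb (−1.15), for gene distance by overlap (−14.5) and outside the gene-poorest class (−15.6), for spacing with q-values up to 0.05 (−1.20), with a minimum −log10 p of 5 (−1.12) and with peaks within 1 or 5 kb merged (−1.27 and −0.97), for concentration by covered length (16.5), for H3ac to H3K27me3 within 100 kb (15.7) and with equal numbers (13.4), and for H3K27me3 to H3ac outside the gene-poorest class (4.46). Leaving out 1 pair kept the direction in 24 of 24 cases, with the distal difference from −5.85 to −3.45, that of gene distance from −32.4 to −20.2, spacing from −2.60 to −1.44, concentration from 6.23 to 10.9, H3ac to H3K27me3 from 18.1 to 33.5 and H3K27me3 to H3ac from 4.12 to 11.7. With 4 pairs no p could fall below 0.125 in an exact permutation test, so these p-values say nothing about stability. One list per condition leaves stage, temperature and library together, and the calling of the marks differed in mode, depth and stringency.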
